A study of Homo sapiens with 8 samples.

Results

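The 44 genes described here encode the machinery that copies DNA at the replication fork, marks and fires the origins where copying starts, and packs the new DNA into nucleosomes. They were chosen by name, as the probe sets of the deposited value table whose single annotated symbol is one of the 44, with the brightest probe set over all 8 arrays standing for each gene. All 44 were found among the 19775 genes with such a probe set, and all 44 passed the filter on dim genes, which kept 11678. ORC1 passed only through its cycling values, as its mean quiescent log2 value lay under the filter. It could hardly be called other than lower, so it adds little to the counts below. The samples were quiescent cells (pyronin Y dull) and cycling cells (pyronin Y bright), 4 arrays each, sorted from multicellular aggregates of lymphoma cells (MALC) of the RL line cultured for 14 days. RL is an established human B lymphoid line with the genotype t(14,18)+, which both groups carry, and all samples come from this 1 line. Pyronin Y is a dye that binds RNA, so the sort selected the quiescent cells for low RNA content. The labels do not tell separate cultures from repeated sorts of 1 culture. The spread behind every p-value may therefore be technical only.

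In cells that divide, DNA is copied once per cycle. The origin recognition complex marks origins, the CDC7 kinase with DBF4 fires them, and a helicase that includes the GINS proteins unwinds the DNA. Polymerase alpha with primase then starts each strand, polymerases epsilon and delta extend it, and histone chaperones place histones on the daughter strands. Many of these genes are known targets of E2F transcription factors, which are held in check when a cell leaves the cycle.

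The replication genes were lower in quiescent cells almost without exception, and by very different amounts. With arrays centred on their medians, 43 of the 44 members fell and 0 rose at a limma adjusted p under 0.05, against 32.5% of all genes tested called lower and 2.8% called higher. As deposited, 37 of 44 were lower and 0 higher, against 15.4% and 12.2% of all genes, and with quantile normalization 38 were lower and 0 higher, against 16.4% and 10.5%. The median log2 difference, quiescent minus cycling, was −1.73 over the members and −0.33 over all genes in the centred values, and −1.32 and 0.081 as deposited. The members' median minus that of all genes was −1.40 under either of these scalings. Under all 3 scalings 36 members were lower, against 14.1% of all genes. A fall of at least 2-fold was called for 35 members in the centred values, against 12.3% of all genes, and for 28 as deposited, against 4.32%. A fall of at least 4-fold was called for 18 of the 44 in the centred values, against 1.62% of all genes, and for 10 as deposited, against 0.908%. The differences ran from −3.70 for DTL to −0.27 for GINS4. From here on, levels are deposited MAS5 intensities of samples 1 to 4 of a group in that order. Differences are log2 differences in centred values, quiescent minus cycling, unless stated as deposited. Centring makes each of them 0.413 lower than as deposited, so falls look larger. Because every array was scaled to the same average, each difference is measured against the rest of the array's RNA. In such bulk samples, fewer cells of a type and less RNA per cell cannot be told apart.

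**Figure D1:**
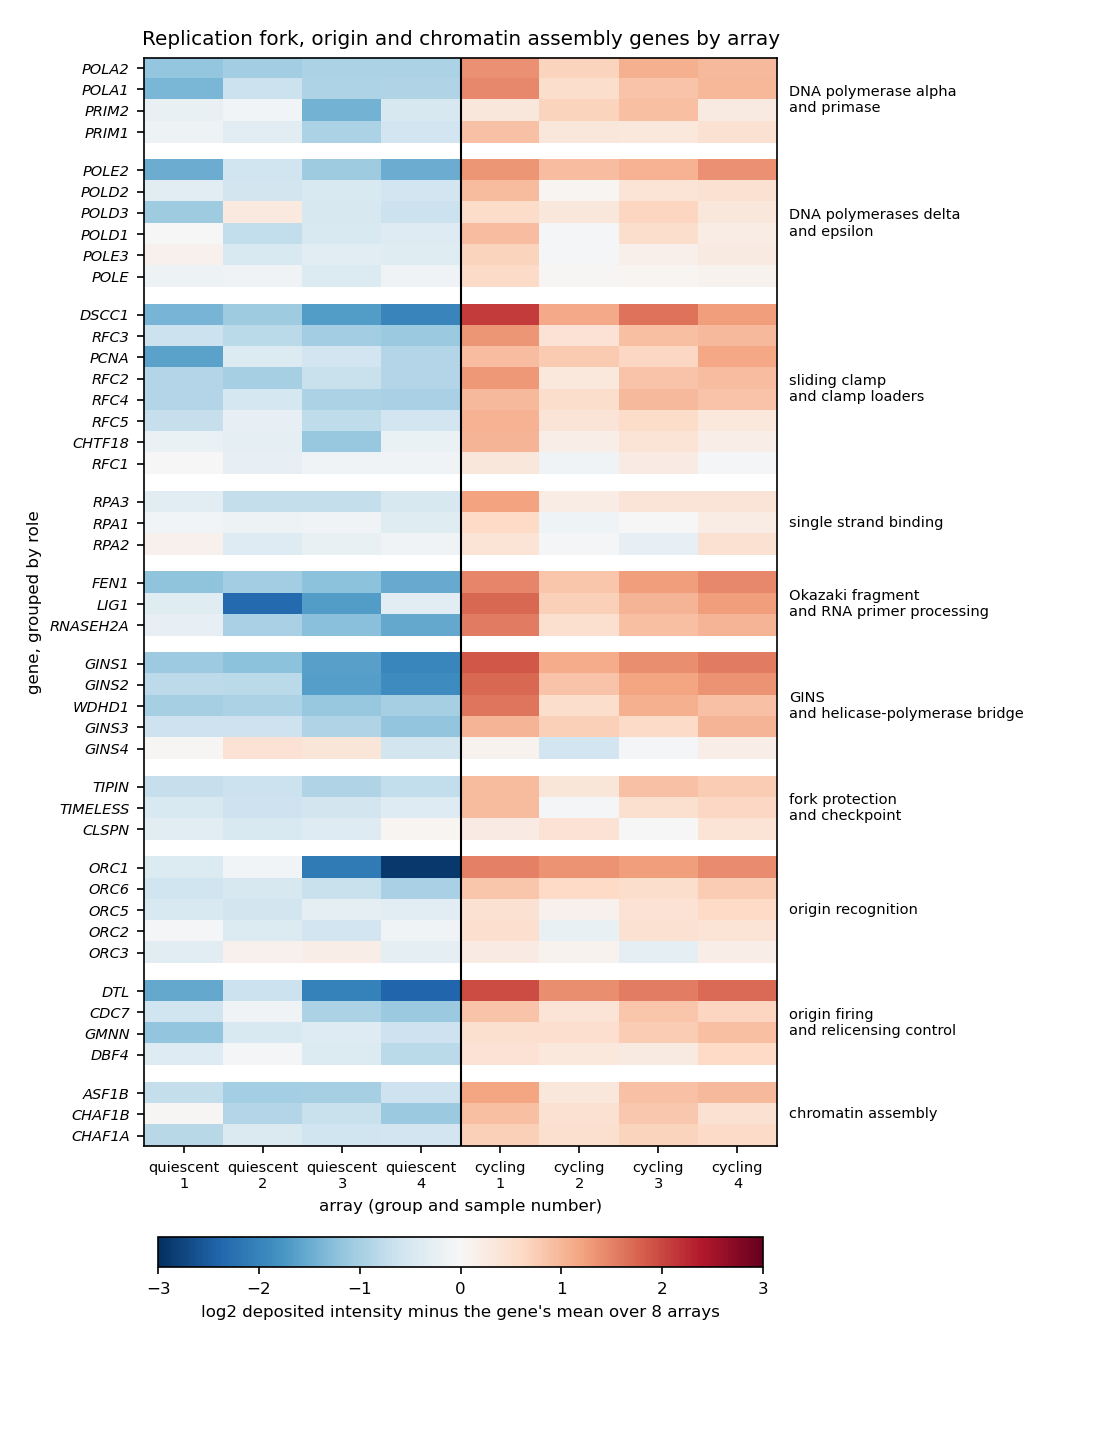
Heat map of the 44 genes (rows, grouped by role) on the 4 quiescent and 4 cycling arrays (columns). Colour is the log2 deposited intensity minus that gene's mean over the 8 arrays; for 35 of the 44 genes all 4 quiescent arrays lie below all 4 cycling arrays, and cycling sample 2 is the lowest cycling array for 31 of the 44.

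Deposited intensities of the quiescent and cycling arrays did not overlap for 35 of the 44 members, against 15.4% of all genes tested with the quiescent arrays lower. The 9 that overlapped were POLD1, POLE3, RFC1, RPA1, RPA2, GINS4, CLSPN, ORC2 and ORC3. After centring 39 did not overlap, against 28.3%. The arrays of a group were not alike. Cycling sample 2 was the lowest of the cycling arrays for 31 members and cycling sample 1 the highest for 33. Quiescent sample 4 was the lowest quiescent array for 17. After centring, cycling sample 2 was the lowest for 42 of the 44. Without that array, 43 members were called lower in the centred values, against 38.8% of all genes, and 38 as deposited, against 16.1%.

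The groups matched their labels in the genes checked. MKI67, the proliferation marker, measured 608, 406, 248 and 186 on quiescent arrays and 2471, 1678, 1809.6 and 1639 on cycling arrays, a log2 difference of −2.93. The CDK inhibitor gene CDKN1B measured 7054, 9471, 10702 and 7464 on quiescent arrays and 3016, 4829, 4550.2 and 4011 on cycling arrays (0.67, limma adjusted p = 0.0128). Of the B cell markers, 5 were measured, and their summed intensity was 51025 to 62458 on quiescent and 51249.9 to 61831 on cycling arrays. Of these 5, 4 were called lower in the centred values and 0 as deposited. The 10 measured markers of T cells, myeloid cells, fibroblasts, epithelium, endothelium and red cells summed to 1133 to 1729 on quiescent and 777 to 1287 on cycling arrays, none of them was listed at 0, and the highest single value was 721, for PECAM1. For CD8A, CD14, LYZ, COL1A2 and EPCAM the mean log2 value lay under the filter. RNA quality was read from the ACTB controls, as log2 of the 3′ over the 5′ signal, which was 2.38 to 2.80 on quiescent and 1.80 to 2.26 on cycling arrays. The same ratio of the GAPDH controls was 0.101 to 0.145 on quiescent and −0.148 to 0.032 on cycling arrays. The groups did not overlap in either ratio, and the part of these marker and quality values in the results was not tested.

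Promoters were compared because the members moved together. RefSeq promoters of GRCh38.p14, from 250 bases before to 50 after each annotated start, were matched by symbol for 39 of the 44 members, all but DSCC1, GINS4, POLD3, RPA2 and RPA3. An E2F-type site was searched as TTTCCCGC, TTTCGCGC, TTTGCCGC or TTTGGCGC on both strands. It was present at a start of 16 of these 39 genes, or 41.0%, compared with 6.61% of the 9467 tested genes with a promoter and 3.99% of all 27305 genes in the promoter table. Their promoters had a median GC content of 65.7%, and those of the tested genes 64.3%. CCAAT, on both strands, was present for 23 of the 39, or 59.0%, against 43.7% of tested genes. TTTGAA, a form of the CHR element known from mitotic genes, was present for 3, or 7.69%, against 13.8% of tested genes. A match describes letters in this window and not a bound site.

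The promoter stretches show the sites in genes that fell far and in ORC3, whose difference was small. ORC1 and FEN1, which also fell far, hold none of the exact letters searched. Near matches were not counted, and the ORC1 stretch holds attggcgc, which differs from TTTGGCGC only in its first letter. Each stretch runs from 140 bases before the start through the first 10 bases transcribed, 5′ to 3′ on the gene's strand. Capitals mark the E2F-type site on either strand.
DTL, chr1:212035608-212035757 (+): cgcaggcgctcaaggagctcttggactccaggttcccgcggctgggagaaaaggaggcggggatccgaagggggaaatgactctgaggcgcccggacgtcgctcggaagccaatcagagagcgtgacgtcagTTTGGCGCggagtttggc
GINS2, chr16:85688945-85689094 (-): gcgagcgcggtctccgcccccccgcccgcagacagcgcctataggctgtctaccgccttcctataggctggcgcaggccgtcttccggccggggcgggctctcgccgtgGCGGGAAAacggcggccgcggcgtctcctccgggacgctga
POLE2, chr14:49688205-49688354 (-): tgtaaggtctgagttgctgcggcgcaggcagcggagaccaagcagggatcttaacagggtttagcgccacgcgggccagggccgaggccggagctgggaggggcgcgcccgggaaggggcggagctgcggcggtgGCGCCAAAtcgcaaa
POLA2, chr11:65261822-65261971 (+): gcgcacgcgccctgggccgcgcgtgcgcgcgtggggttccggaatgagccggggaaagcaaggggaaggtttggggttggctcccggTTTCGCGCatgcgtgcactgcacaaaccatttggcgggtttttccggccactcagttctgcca
RFC3, chr13:33818009-33818158 (+): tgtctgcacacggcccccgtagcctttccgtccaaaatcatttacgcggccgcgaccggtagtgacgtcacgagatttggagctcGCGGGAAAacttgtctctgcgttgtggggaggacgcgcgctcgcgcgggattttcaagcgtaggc
PCNA, chr20:5126613-5126762 (-): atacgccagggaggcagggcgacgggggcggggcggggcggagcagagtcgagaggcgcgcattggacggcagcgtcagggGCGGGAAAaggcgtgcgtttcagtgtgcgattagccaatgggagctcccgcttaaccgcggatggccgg
ORC3, chr6:87589995-87590144 (+): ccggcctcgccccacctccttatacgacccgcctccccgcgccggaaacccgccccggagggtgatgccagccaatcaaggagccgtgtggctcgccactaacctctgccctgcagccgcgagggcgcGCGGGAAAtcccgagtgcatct
ORC1, chr1:52404414-52404563 (-): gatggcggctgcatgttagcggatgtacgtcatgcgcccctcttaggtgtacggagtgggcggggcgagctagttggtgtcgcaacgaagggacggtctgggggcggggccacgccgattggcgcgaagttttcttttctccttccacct
FEN1, chr11:61792771-61792920 (+): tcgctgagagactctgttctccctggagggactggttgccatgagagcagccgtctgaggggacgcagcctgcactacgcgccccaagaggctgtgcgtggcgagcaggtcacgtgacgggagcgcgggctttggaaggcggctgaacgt

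The 16 members with such a site were CDC7, CLSPN, DTL, GINS1, GINS2, GINS3, GMNN, LIG1, ORC3, PCNA, POLA1, POLA2, POLE, POLE2, RFC3 and TIPIN. Their median log2 difference was −2.18 centred, with a range from −3.70 to −0.56, and 13 were lower as deposited. The 23 members without one had a median of −1.50, with a range from −3.17 to −0.63, and 21 were lower as deposited. Of all genes tested, 15.4% were called lower as deposited. The site letters thus stood both before DTL, the member with the largest fall, and before ORC3, which did not pass as deposited, and ORC1 and FEN1 fell far without them in this window. The first base of the site lay 8 bases before the start in DTL, 12 in ORC3, 31 in GINS2, 53 in POLA2, 55 in RFC3 and 59 in PCNA. The difference between the members with and without a site was not tested.

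Polymerase alpha and primase lay the first stretch of RNA and DNA on each strand, and all 4 of their genes fell under every scaling. POLA2, the accessory subunit of polymerase alpha, measured 188, 205, 217 and 218 on quiescent arrays and 1079, 671, 886 and 824 on cycling arrays. The groups were far apart, and the log2 difference was −2.46 (SE 0.23, adjusted p by limma = 8.16e-07). POLA1, the catalytic subunit, fell by a like amount (−2.33, SE 0.29). The primase genes had smaller differences. PRIM1, the catalytic subunit of primase, measured 1543, 1384, 895 and 1158 on quiescent arrays and 3155, 2179, 2156 and 2377 on cycling arrays (−1.41, SE 0.21, adjusted p = 7.44e-05). PRIM2, its large subunit, had −1.50 (SE 0.32). For POLA1 and PRIM2, 1 quiescent array each lay under an intensity of 100. A further POLA2 probe set that passed the filter was not called (−0.17, adjusted p over all probe sets 0.721).

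The leading strand polymerase epsilon was the most uneven of the polymerases. POLE2, the subunit that holds the enzyme to the helicase, measured 249, 466, 333 and 249.6 on quiescent arrays and 1738, 1326, 1436 and 1800.4 on cycling arrays (−2.73, SE 0.24, limma adjusted p = 4.96e-07). POLE, the catalytic subunit, measured 342, 353, 289 and 355 on quiescent arrays and 568, 393, 401 and 414 on cycling arrays. Its groups did not overlap but lay close, with −0.81 (SE 0.21, adjusted p = 0.00687), and it did not pass as deposited (−0.39, adjusted p = 0.135). POLE3, a histone-fold subunit that also belongs to a chromatin remodelling complex, had −0.93 (adjusted p = 0.00259) and did not pass after quantile normalization (adjusted p = 0.0793). Of polymerase delta, which copies the lagging strand, 3 genes are among the 44. Its catalytic subunit POLD1 and accessory subunits POLD2 and POLD3 had −1.21, −1.36 and −1.36, and all 3 were also lower as deposited. POLD4, its small subunit and not one of the 44, measured 4297, 2959, 4362 and 4368 on quiescent arrays and 5046, 3686, 4615 and 4305 on cycling arrays. The groups overlapped, and POLD4 had −0.57 centred (adjusted p = 0.0377) and −0.15 as deposited (adjusted p = 0.489).

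PCNA, the ring that clamps polymerases onto DNA, measured 1553, 3553, 3154 and 2556 on quiescent arrays and 8942, 8159, 7212 and 10524 on cycling arrays. All cycling arrays were above all quiescent ones, and quiescent sample 1 was the lowest (−2.15, SE 0.24, limma adjusted p = 6.84e-06). The ring is loaded by a complex of the small subunits RFC2 to RFC5 with a large subunit, RFC1. The small subunits fell together, with −2.12 for RFC2, −2.22 for RFC3, −2.07 for RFC4 and −1.55 for RFC5. RFC1 stood apart from them. It measured 3164, 2653, 2900.3 and 2919 on quiescent arrays and 3961, 2925, 3705 and 2996 on cycling arrays, and the groups overlapped. Its difference of −0.63 (SE 0.19, adjusted p = 0.0159) did not pass as deposited (−0.21, adjusted p = 0.255), after quantile normalization, or without cycling sample 1 or 3 (adjusted p = 0.0527 and 0.0625). In a second loader CHTF18 takes the place of RFC1 and works with DSCC1. DSCC1 measured 118, 148, 98.3 and 79.0 on quiescent arrays and 1334, 682, 965 and 749 on cycling arrays, the second largest fall of the 44 (−3.47, SE 0.28, adjusted p = 3.13e-07). Of its quiescent arrays, 2 lay under an intensity of 100, so the size of the fall rests on dim values. CHTF18 had a smaller difference (−1.32, SE 0.28).

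The single-strand binding protein RPA, which coats unwound DNA in replication and in repair, was among the least changed. RPA2 measured 5219, 3625, 4059 and 4425 on quiescent arrays and 6335, 4621, 4000.0 and 6516 on cycling arrays, with overlapping groups (−0.70, SE 0.20, limma adjusted p = 0.0111). RPA1, the largest subunit, had −0.76 (SE 0.20), and a second probe set gave −0.75. Neither RPA1 nor RPA2 passed as deposited (adjusted p = 0.104 and 0.225), and RPA2 also did not without cycling sample 4 (adjusted p = 0.0540). The smallest subunit RPA3 fell further, and its groups did not overlap. It measured 955, 719, 724 and 851 on quiescent arrays and 2737, 1382, 1538 and 1558 on cycling arrays (−1.52, SE 0.23, adjusted p = 9.38e-05).

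Enzymes that finish the lagging strand fell steeply and under every scaling. FEN1, which trims the flap in front of each Okazaki fragment, measured 1655, 1854, 1621 and 1344 on quiescent arrays and 10535, 6717, 9008 and 10274 on cycling arrays (−2.90, SE 0.21, limma adjusted p = 1.34e-07). Its second probe set fell by nearly as much (−2.44, adjusted p over all probe sets 4.48e-06). RNASEH2A, the catalytic subunit of the RNase that removes ribonucleotides from DNA, measured 713, 433, 357 and 292 on quiescent arrays and 2509, 1183, 1594 and 1729.8 on cycling arrays (−2.41, SE 0.30). LIG1, the ligase that joins the fragments, had −2.76 with a wide error (SE 0.42), and 2 of its quiescent arrays lay under 100.

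The GINS proteins are 4 subunits of the helicase that travels with the fork. GINS1 measured 417, 376, 287 and 228 on quiescent arrays and 3217, 1927, 2337 and 2629 on cycling arrays (−3.38, SE 0.24, limma adjusted p = 1.34e-07). GINS2 and GINS3 fell as well, with −2.97 and −2.07, as did WDHD1, which couples the helicase to polymerase alpha (−2.44). GINS4 was the 1 member of the 44 that did not pass. Its brightest probe set measured 179, 238, 224 and 119.7 on quiescent arrays and 189.5, 118, 172 and 203 on cycling arrays, and the groups overlapped (−0.27, SE 0.32, adjusted p = 0.553, and 0.14 as deposited).

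The other probe sets of GINS4 did not all behave like the brightest. Probe set 211767_at measured 43.6, 32.4, 65.4 and 28.8 on quiescent arrays and 388, 156, 320.3 and 320.2 on cycling arrays. There the groups did not overlap and the difference was −3.21 (SE 0.42, limma adjusted p over all probe sets 5.76e-05). All 4 quiescent values lay under the filter of 83.3 and were not shown to be above background, so the size of this difference is uncertain. Probe set 235029_at was also called lower (−2.06, adjusted p 0.00332), and 240778_at was not (−0.22, adjusted p 0.723). The brightness of a probe set sets which one stands for a gene and says nothing of which one measures it. With the mean of all 4 probe sets GINS4 was called lower, at −1.44 (adjusted p = 2.13e-03).

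**Figure D2:**
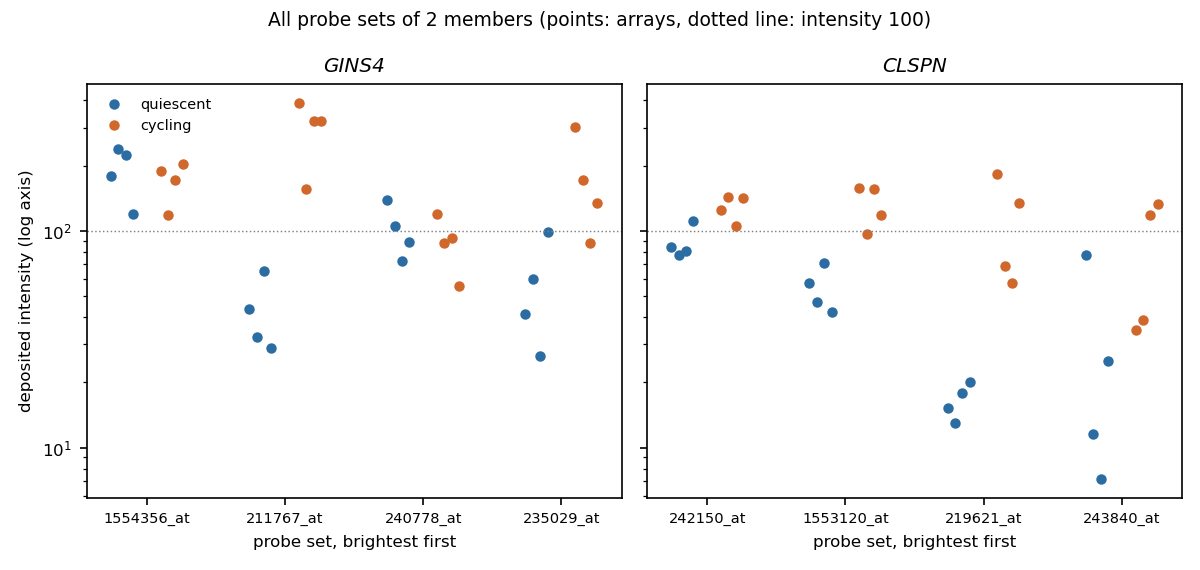
Deposited intensity (log axis) of every probe set of GINS4 and CLSPN, with quiescent arrays left of cycling arrays at each probe set and a dotted line at an intensity of 100. The brightest GINS4 probe set overlaps between groups, whereas 211767_at lies between 28.8 and 65.4 on quiescent arrays and between 156 and 388 on cycling arrays.

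Fork protection genes keep the helicase and polymerases together and pass on stalling signals. TIPIN measured 673, 694, 579 and 650.2 on quiescent arrays and 2105, 1396, 2005 and 1823 on cycling arrays (−1.90, SE 0.21, limma adjusted p = 4.64e-06). Its partner TIMELESS fell too (−1.42, SE 0.23). CLSPN, the adaptor that lets the ATR kinase activate CHEK1, was dim on all arrays. It measured 84.0, 77.1, 81.1 and 111 on quiescent arrays and 125, 144, 105 and 141 on cycling arrays at its brightest probe set (−0.96, SE 0.33, adjusted p = 0.0288) and did not pass as deposited (adjusted p = 0.207). Without quiescent sample 2 or 3, or cycling sample 1 or 4, it did not pass either (adjusted p = 0.0609, 0.0559, 0.0652 and 0.0953). A second CLSPN probe set, 1553120_at, was called lower with −1.69 (adjusted p over all probe sets 0.00498), also from quiescent values under the filter.

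Among the origin recognition genes the differences varied with the subunit. ORC1, the largest subunit, whose protein is known to come and go with the cell cycle in human cells, measured 131, 162, 39.6 and 23.3 on quiescent arrays and 494, 439, 412 and 460.0 on cycling arrays. The cycling arrays were close to each other and the quiescent ones were spread over a wide range of dim values (−3.17, SE 0.52, limma adjusted p = 5.22e-04). Since ORC1 passed the filter only through its cycling values, the direction of this difference was largely set in advance. ORC6, the smallest subunit, had a log2 difference of −1.77 (SE 0.18), ORC5 of −1.22 (SE 0.19) and ORC2 of −0.99 (SE 0.24). A second ORC2 probe set had 0.042 and was not called (adjusted p over all probe sets 0.912). ORC3 moved least. It measured 1067, 1472, 1542 and 1100.3 on quiescent arrays and 1607, 1448, 1114 and 1550.3 on cycling arrays, with the groups interleaved (−0.56, SE 0.20, adjusted p = 0.033). As deposited it had −0.15 (adjusted p = 0.551), and it did not pass without quiescent sample 1 or 4 or without cycling sample 1 or 4 (adjusted p = 0.0895 to 0.117).

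Origins are fired by the CDC7 kinase with its activator DBF4, and refiring in the same cycle is blocked by geminin, the product of GMNN, and by DTL, which directs the licensing factor CDT1 to destruction. DTL had the largest fall of the 44. It measured 169.7, 313, 119.8 and 94.1 on quiescent arrays and 1885, 1289, 1410.2 and 1583 on cycling arrays (−3.70, SE 0.32, limma adjusted p = 1.23e-06), and its second probe set gave −3.24. DBF4 fell least in this group. It measured 2832, 3612, 2788 and 2120.2 on quiescent arrays and 4989.5, 4577, 4433 and 5563 on cycling arrays (−1.22, SE 0.20, adjusted p = 1.62e-04). CDC7 and GMNN had −1.79 and −1.74, and all 4 genes were also lower as deposited and after quantile normalization.

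The 3 chromatin assembly genes fell by similar amounts under every scaling. ASF1B, a chaperone that hands histones H3 and H4 to the assembly factor, measured 714, 569.6, 586 and 750.5 on quiescent arrays and 2623, 1478, 2127 and 2263 on cycling arrays (−2.09, SE 0.23, limma adjusted p = 3.78e-06). CHAF1A, the subunit of CAF-1 that binds PCNA, measured 537, 712, 642 and 646 on quiescent arrays and 1586, 1342, 1528 and 1446 on cycling arrays. The arrays of each group were close together (−1.63, SE 0.19, adjusted p = 7.80e-06), and 2 further probe sets fell too (−1.56 and −2.10). CHAF1B, the middle subunit of CAF-1, fell alongside (−1.72, SE 0.28).

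**Figure D3:**
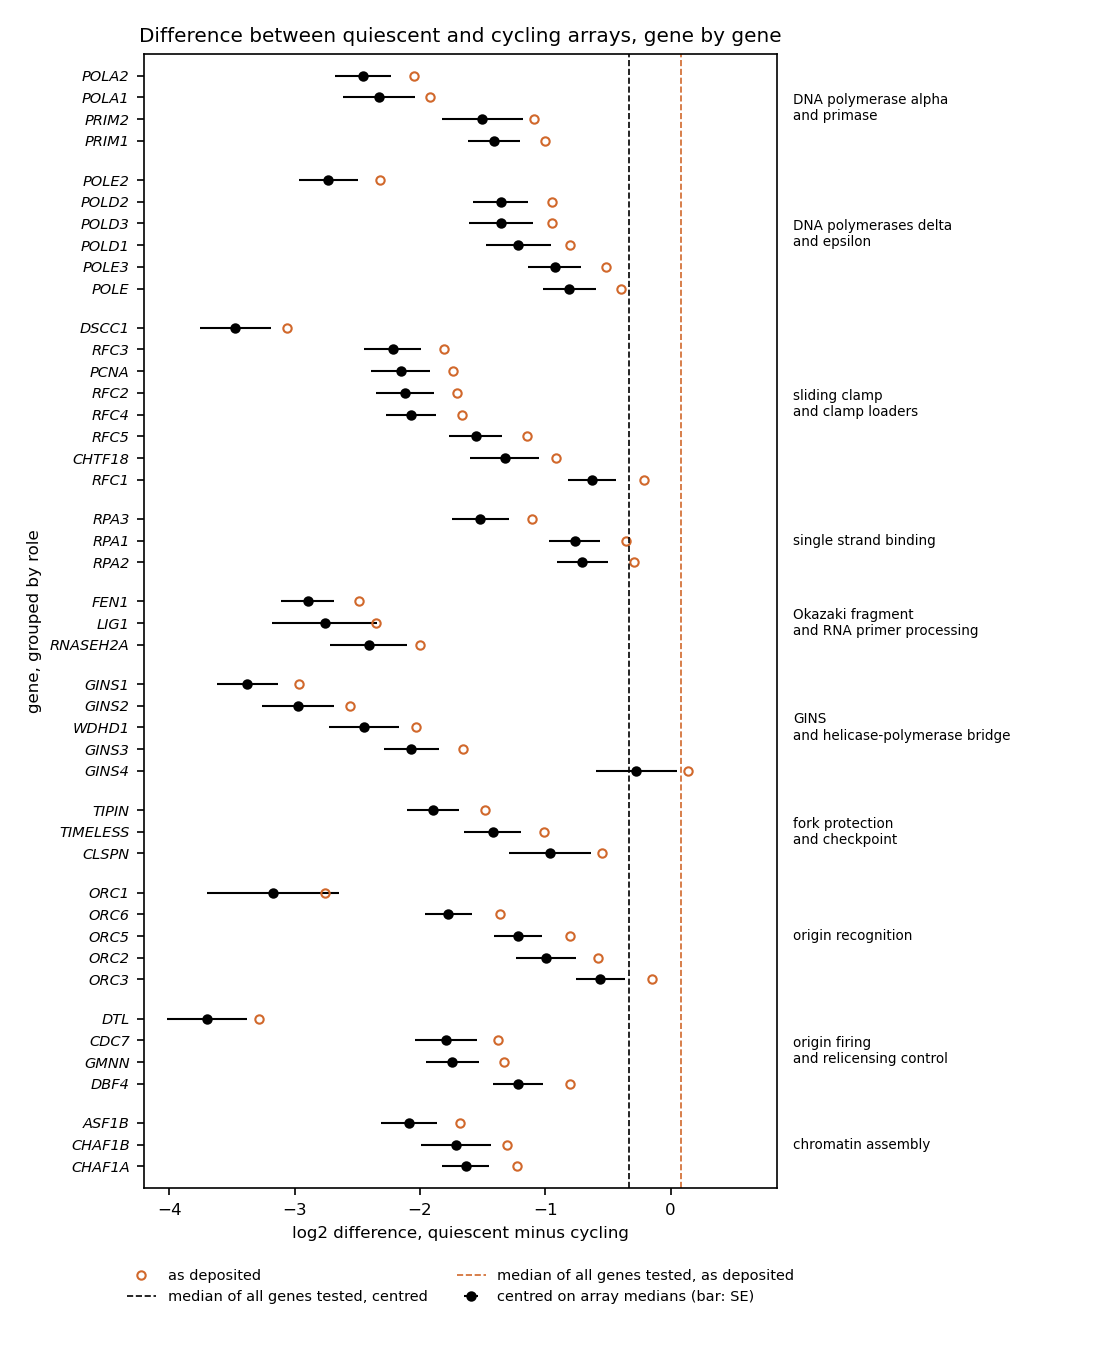
Log2 difference, quiescent minus cycling, of each of the 44 genes, grouped by role. Filled points with SE bars are centred values, open points are values as deposited, and dashed lines are the medians of all genes tested (−0.33 centred and 0.081 as deposited); RFC1, RPA2, GINS4 and ORC3 lie nearest to those lines within their groups.

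Of the 44 members, 19 had several probe sets and 16 had several that passed the filter. Among the 23 passing probe sets other than the brightest, 17 were called lower, 0 higher and 6 not called, against 23.8% of all 27307 probe sets tested called lower. As deposited 15 were called lower, against 10.8%. The 6 belonged to POLA2, RFC5, RPA1, GINS2, GINS4 and ORC2. Some of the 17 passed the filter only through their cycling values. Mean quiescent intensity lay under the filter for GINS4 211767_at (42.6) and 235029_at (56.5). The same held for CLSPN 1553120_at (54.6) and WDHD1 204727_at (52.9). A probe set that passes in this way can hardly be other than lower in quiescent cells, so these add little to the count. Probe sets with names ending in _x_at, which stand here for RFC1, ORC6 and CHAF1A, can bind related transcripts.

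Genes of the same or a related complex were then compared within each array, since the ratio of 2 genes on 1 array does not depend on how the array was scaled. In 11 of 13 pairs the log2 ratio differed between quiescent and cycling arrays in a two-sided exact permutation test over 70 assignments (p = 0.0286, the smallest they can give, adjusted over the pairs 0.0338). The 13 pairs share some genes and were chosen with earlier results of these data known. The count of 11 therefore does not measure how often pairs of genes differ. RFC3 fell relative to RFC1, with a log2 ratio of −1.04 ± 0.21 on quiescent and 0.55 ± 0.25 on cycling arrays (SD, n = 4 each), a difference of −1.59 (SE 0.16). DSCC1, of the second loader, relative to RFC1, of the first, differed by −2.85 (SE 0.25). With the mean of all probe sets this was −1.08 and did not pass (adjusted p = 0.124). ORC1 fell relative to ORC2 (−2.18, SE 0.71), and ORC6 relative to ORC3 (−1.21, SE 0.15). The ORC1 ratio adds little, because ORC1 passed the filter only through its cycling values. POLE2 fell relative to POLE3 (−1.81, SE 0.33) and RPA3 relative to RPA1 (−0.75, SE 0.15).

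Smaller inequalities were also seen. DBF4 fell less than CDC7, with a ratio of 2.98 ± 0.20 on quiescent and 2.40 ± 0.24 on cycling arrays, a difference of 0.58 (SE 0.16). TIMELESS fell less than TIPIN (0.48, SE 0.13), which did not pass with the mean of all probe sets (0.37, adjusted p = 0.203). GINS2 fell more than GINS3 at their brightest probe sets (−0.91, SE 0.21). This turned to 0.40 with the mean of all probe sets (adjusted p = 0.203), where dimmer GINS2 probe sets enter. The 2 primase genes differed by 0.091 (SE 0.30, exact p = 0.771) and POLD1 and POLD2 by 0.14 (SE 0.13, exact p = 0.314), with overlapping groups in both. Without cycling sample 3, 0 of the 13 pairs passed the exact permutation test after adjustment (smallest adjusted p = 0.0531), while 7 had an unadjusted p under 0.05. Without each of the other arrays in turn 8 to 11 passed.

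**Figure D4:**
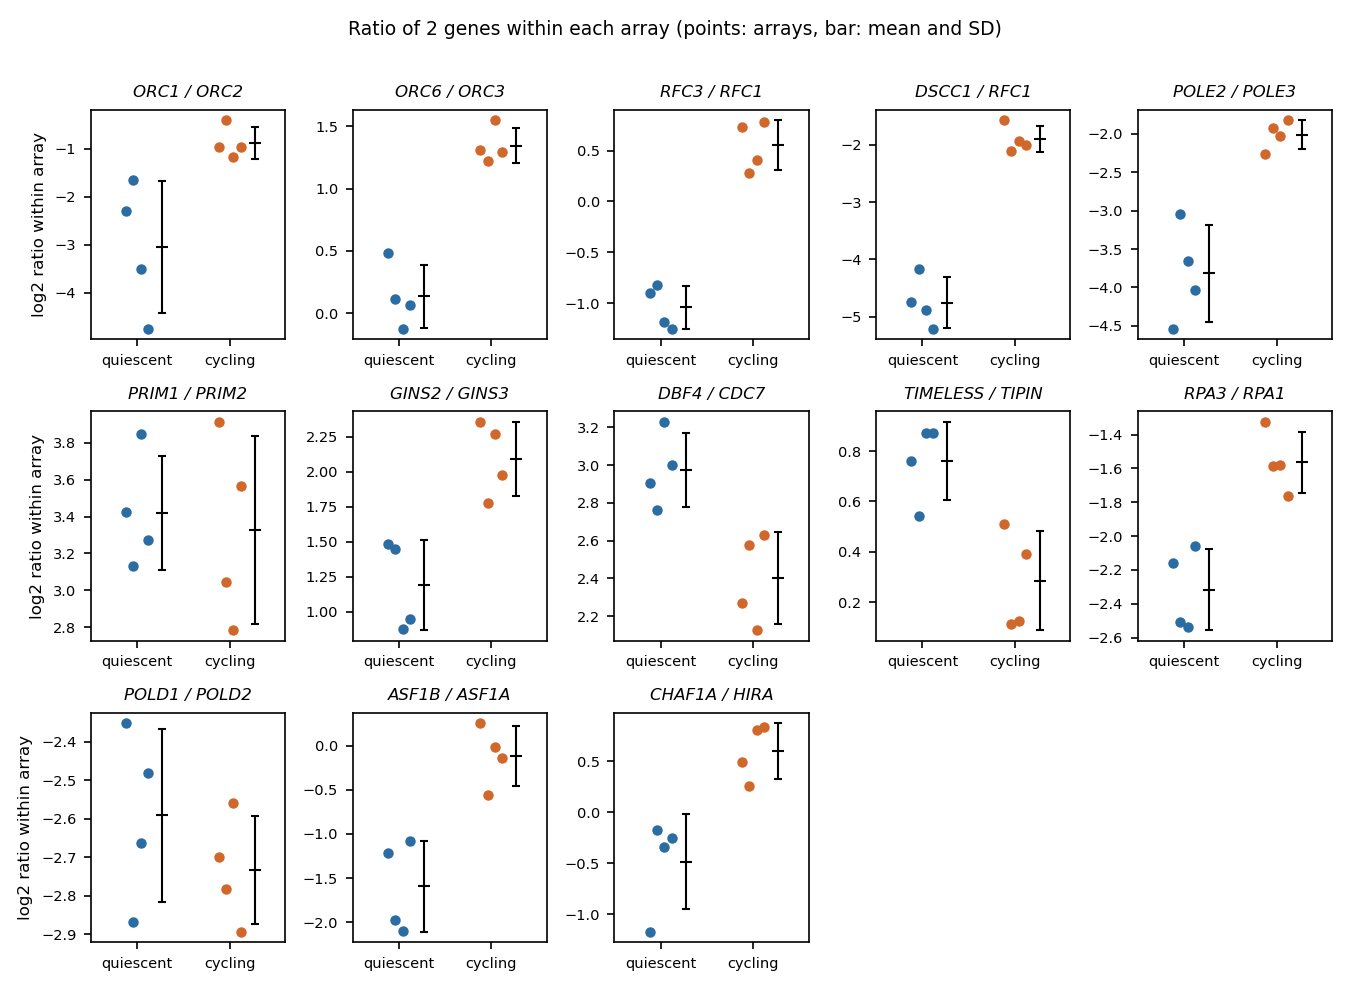
Log2 ratio of 2 genes within each array for 13 pairs, with quiescent arrays on the left of each panel and cycling arrays on the right; points are arrays and bars are mean and SD (n = 4 each). Quiescent and cycling points overlap only for PRIM1 over PRIM2 and POLD1 over POLD2.

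The chromatin assembly genes were set beside a paralog, beside HIRA and beside a list of other histone chaperones. Neither the paralog nor the list was limited to chaperones that work outside replication. ASF1B fell relative to its paralog ASF1A, with a log2 ratio of −1.59 ± 0.52 on quiescent and −0.12 ± 0.34 on cycling arrays, a difference of −1.48 (SE 0.31, exact permutation p = 0.0286, adjusted 0.0338). CHAF1A fell relative to HIRA, a chaperone that deposits histone H3.3 outside replication (−1.08, SE 0.27, exact permutation p = 0.0286, adjusted 0.0338). ASF1A itself measured 1664, 2235, 2515 and 1590.1 on quiescent arrays and 2200.0, 2182, 2156 and 2498 on cycling arrays, with overlapping groups, and had −0.61 centred (limma adjusted p = 0.0233) and −0.20 as deposited (0.375). HIRA had −0.55 (0.0374) and −0.14 as deposited (0.606). Of 15 other histone chaperones, 11 were lower and 0 higher in the centred values, with a median of −0.71, against 32.5% of all genes called lower. As deposited 5 were lower and 1 higher, against 15.4% and 12.2%. HAT1, which acetylates new histone H4, and SSRP1, a subunit of FACT, fell most (−1.53 and −1.52). UBN2, a partner of HIRA, was the 1 called higher as deposited (0.66, adjusted p = 0.0039), with 0.25 centred (adjusted p = 0.26).

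Other genes of DNA replication, outside the 44, were lower too, beside the median of −0.33 over all genes tested. The counts below stand against 32.5% of all genes tested called lower in the centred values and 15.4% as deposited. All 10 genes of the helicase core and of origin licensing were lower in the centred values and 9 as deposited, with a median of −2.18. CDC45, which joins GINS in the helicase, measured 49.2, 149.9, 85.3 and 24.3 on quiescent arrays and 1533, 897, 1297 and 1499.7 on cycling arrays. It had −4.77, a size that rests on dim quiescent values not shown to be above background. The mean quiescent intensity of CDC45, 77.2, lay under the filter, so its direction was largely set in advance. MCM5 had −0.67 (limma adjusted p = 0.0254), against −2.53 for MCM6 of the same ring. MCM5 was the 1 not called as deposited (adjusted p = 0.302). All 6 measured genes of deoxynucleotide supply were lower under both scalings, with a median of −2.71. Of 13 tested further fork and origin genes, 13 were lower in the centred values and 9 as deposited, with a median of −1.20. DNA2, on this list, also passed the filter only through its cycling values. UHRF1, which carries DNA methylation through replication, and PCLAF, a PCNA-binding protein, had −3.65 and −2.80. ORC4, the ORC subunit outside the 44, had −0.71 centred and −0.30 as deposited (adjusted p = 0.146).

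A further list of 14 tested genes held mostly DNA polymerases, and subunits of them, that work in repair or bypass damage. The list also included the mitochondrial POLG and POLG2, and DNTT. In the centred values 4 were lower and 0 higher, near the 32.5% and 2.8% of all genes, with a median of −0.027. As deposited 2 were lower and 2 higher, near the 15.4% and 12.2% of all genes, with a median of 0.39. POLQ, the polymerase of end joining by short homologies, measured 164, 253, 293 and 183 on quiescent arrays and 1374, 1042, 1139 and 1123 on cycling arrays and fell under both scalings (−2.83, SE 0.23, limma adjusted p = 3.50e-07). MAD2L2, a subunit of polymerase zeta, fell too (−1.24), whereas its catalytic partner REV3L had 0.15 centred (adjusted p = 0.586) and was called higher as deposited (0.56, adjusted p = 0.0148). POLI, a translesion polymerase, was likewise called higher as deposited (0.62, adjusted p = 0.0128) and not in the centred values (0.21). POLB and POLG, of base excision repair and of mitochondria, were lower in the centred values (−0.67 and −0.67) and not called as deposited.

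**Figure D5:**
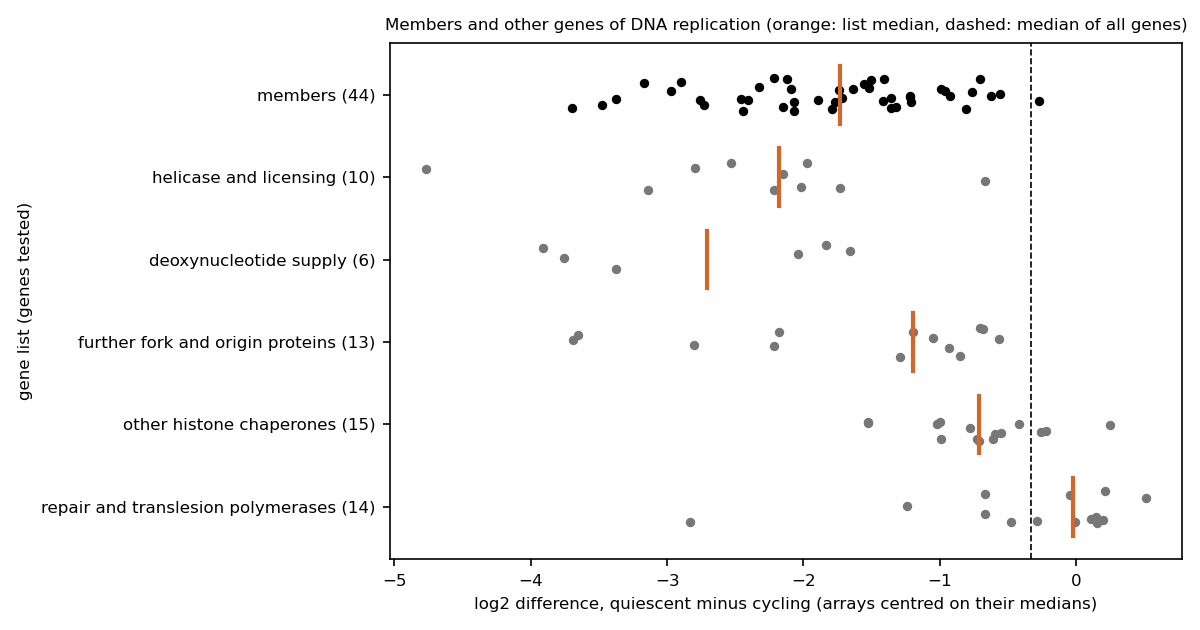
Log2 difference, quiescent minus cycling, in centred values for the 44 members and for 5 lists of other replication and repair genes; points are genes, orange lines are list medians and the dashed line is the median of all genes tested. Member points run from −3.70 to −0.27, and the median of the list labelled repair and translesion polymerases is −0.027.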

How the data were processed

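Total RNA of 8 sorted samples was extracted with Trizol, and 30 ng was labelled by a one-cycle Affymetrix protocol, per the labels' protocols. Values are deposited MAS5 intensities on a linear scale, per the submitters' processing notes (version not given in the sources used here). Every deposited array has a 2% trimmed mean intensity of 500.1, so the values come scaled to a common average. Present calls were not used here, so dim values cannot be told from background. The number of arrays limits the precision.

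Intensities under 1 were set to 1, taken to log2 and centred on array medians, which ranged over 0.657. The medians were 103 to 113 on quiescent and 71.9 to 97.9 on cycling arrays, so centring lowered every difference by 0.413. These medians lie near the filter of 83.3, among dim values. Probe sets with 1 annotated symbol named 19775 genes, each by its brightest. Genes under an intensity of 83.3, the median of 54675 probe sets less 62 controls, were left out. Groups came from sample titles. limma 3.58.1 in R 4.3.3 (lmFit, eBayes with trend and robust, no covariates) was run on 11678 genes with Benjamini-Hochberg adjustment. On simulated data for these 11678 genes of this comparison it recovered 91% of 4-fold and 47% of 2-fold changes with 10 false calls. Python 3.11.15 gave exact tests, motif counts and plots. No column of values was unused.

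The members, gene lists and pairs were chosen with earlier results of these data known. Values on all arrays are given for PCNA and, in each role group, for the members with the largest and smallest fall. Of other lists, a few genes were named, not always those with the largest differences, with some that went against the rest. No gene of the deoxynucleotide supply list was named. ORC4 and MCM6 were named after their values were seen. Some listed genes are not analysed here, and TICRR and MTBP did not pass the filter. Alternatives were another scaling, filter, offset, probe set rule, eBayes setting, a replicate block and leaving out each array.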

Additional observations from a re-analysis of the deposited data

Results flagged for a closer look

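Of 88 groups of 4 arrays (each member in each group), 6 held an array whose gap to the nearest of the others exceeded, as a share of the group's range in centred log2 values, the 95% critical value of Dixon's test. Chance flags about 1 in 20 groups. Cycling sample 2 was the low one in 3 of them. FEN1 measured 6717 there, against 9008 to 10535 on the other cycling arrays (gap 0.907 of the range). GINS4 measured 118 there, against 172 to 203 (0.892), and ORC2 578, against 899 to 960.2 (0.851). PRIM2 was high on cycling sample 3, at 313 against 201 to 264 (0.909). RFC5 was high on quiescent sample 2, at 939 against 655 to 743 (0.890). CHTF18 was low on quiescent sample 3, at 125 against 223 to 239 (0.881).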

How the results depend on the processing

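The count of members called lower was 43, and 31 to 43 under the alternatives, with 0 called higher in each of them and in the added one, chosen after seeing the data, that took the deposited values without cycling sample 2. The 31 are all that pass the filter at the 75th percentile, where 3437 of all 7201 genes tested were called lower. Without the filter 3392 of 19775 genes were called lower. Of the 11678 genes, 2929 were called lower with the mean of all probe sets. That number was 3319 with 32 added and 3384 without trend and robust. The distance of the members' median from that of all genes was −1.40, and −1.49 to −1.31 without single arrays. It was −1.19 with the stricter filter, −1.28 with the mean of all probe sets, −1.32 with quantile normalization or with 32 added, and −1.49 without the filter. Over all genes, the 3795 lower and 327 higher calls became 1802 and 1430 as deposited, 1913 and 1230 with quantile normalization, and 1876 and 1697 as deposited without cycling sample 2. Without single arrays they ran from 2945 to 4536 lower and from 223 to 358 higher. GINS4 turned to 0.14 as deposited. With the mean of all probe sets POLD3, RFC1, RPA1 and ORC2 did not pass, and ORC3 did not without the filter, with 32 added or without trend and robust. Without single arrays the pair differences ran from −2.65 to −1.61 for ORC1 over ORC2, −1.33 to −1.12 for ORC6 over ORC3, −1.68 to −1.51 for RFC3 over RFC1, −3.04 to −2.69 for DSCC1 over RFC1, −2.07 to −1.57 for POLE2 over POLE3, −1.01 to −0.80 for GINS2 over GINS3, 0.48 to 0.65 for DBF4 over CDC7, 0.42 to 0.55 for TIMELESS over TIPIN, −0.84 to −0.67 for RPA3 over RPA1, −1.65 to −1.31 for ASF1B over ASF1A, −1.20 to −0.85 for CHAF1A over HIRA, 0.062 to 0.23 for POLD1 over POLD2 and −0.090 to 0.29 for PRIM1 over PRIM2. PRIM1 over PRIM2 was −0.083 with 32 added. With the mean of all probe sets DSCC1 over RFC1 was −1.08, TIMELESS over TIPIN 0.37 and GINS2 over GINS3 0.40. The cause of these changes was not tested. Deviations from the group means correlated at 0.344, 0.196, 0.110 and 0.036 between same-numbered arrays. Between differently numbered arrays they ran from −0.166 to 0.138, the highest for quiescent sample 3 with cycling sample 4. Arrays of the same number may thus be matched, which the main fit and the pair tests did not take into account. With the sample number as a replicate block 43 members were lower, and 4443 genes were lower and 465 higher. For the pairs, 4 blocks cannot give an exact p under 0.125. Dim quiescent values limit the size of the falls of ORC1, DTL, DSCC1, LIG1, POLA1, PRIM2, WDHD1, CDC45 and the dimmer probe sets of GINS4 and CLSPN.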
